A study of Drosophila melanogaster with 3 samples.

Results

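The odorant binding protein genes of Drosophila melanogaster were followed in metafemale, male and female larvae. Members were all rows of the deposited tables whose gene name begins with Obp and a digit, and each gene was read from its transcript with the highest mean over the 3 groups. This gave 44 genes with 52 transcripts, among 14161 genes and 22738 transcripts in all. No expression filter was set on membership.

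The 3 groups were larvae of the third instar, from stocks kept at 20 degrees. Metafemales have a diploid set of autosomes with an X chromosome more than females, which have the usual pair, and males have a single X. The labels give no further genotype, strain or larval age, and they list 3 biological repeats per group. The submitters deposited 1 value per transcript and group, so a difference between groups has no replicate check and no test, except among very low genes as described below.

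Values are given as counts per 1000000 transcript counts (CPM). They are not corrected for transcript length, so they are compared between groups within a gene and not between genes. The inferred totals of the libraries spanned 69.0 to 112 M counts for metafemales, 31.6 to 92.4 M for males and 65.6 to 89.2 M for females. With the libraries of a group pooled, 3 counts correspond to 0.0112 CPM in metafemales, 0.0178 CPM in males and 0.0133 CPM in females. Intervals are 95% exact binomial intervals of the ratio of values, and they cover counting error only.

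Odorant binding proteins (OBPs) are small secreted proteins held together by disulfide bonds between conserved cysteines. They carry hydrophobic ligands and are abundant in the fluid that bathes olfactory and taste neurons. In flies many are also made outside the sense organs, for example in fat body, glia and the male reproductive tract. The digits in a gene's name give the band of the polytene chromosomes where it lies, and letters tell neighbours apart. Plus-C OBPs have additional cysteines, and Minus-C OBPs lack a conserved pair of them.

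OBP genes took 0.0745% of all counts in metafemales, 0.424% in males and 0.397% in females. In males and females most of this was Obp99b. Obp56d, Obp57d, Obp83ef and Obp99b were at least 2-fold lower in metafemales than in females under each of the 3 scalings tried, while Obp44a, Obp99a and Obp99c fell within 2-fold under both rescalings. The value of Obp57d is identical to that of the cuticle protein gene Cpr57A and cannot be assigned to either gene. Obp49a and Obp83g were higher in metafemales than in females. In males, Obp50a, Obp50b, Obp50c and Obp56i stood above low values in both other groups, with means below 1 CPM. Obp50b and Obp50c have identical values and are 1 measurement. Without a filter they passed 2-fold against females on value + 1 CPM, as did 13.6% of all genes. Obp50a and Obp56i did not pass it.

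Of the 44 genes, 20 reached 1 CPM in at least 1 group, or 45.5%, against 80.8% of all genes. By group this was 18 in metafemales, 19 in males and 17 in females. Values are not corrected for transcript length, so the shares past 1 CPM do not compare levels between sets of genes. Just inside the line were Obp18a, with a highest value of 1.07 CPM, and Obp56c with 1.45 CPM. Just outside were Obp50d with 0.924 CPM and Obp56i with 0.656 CPM. A mean of at least 1 CPM over the groups, the filter used for calls, left 17 genes.

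**Figure D1:**
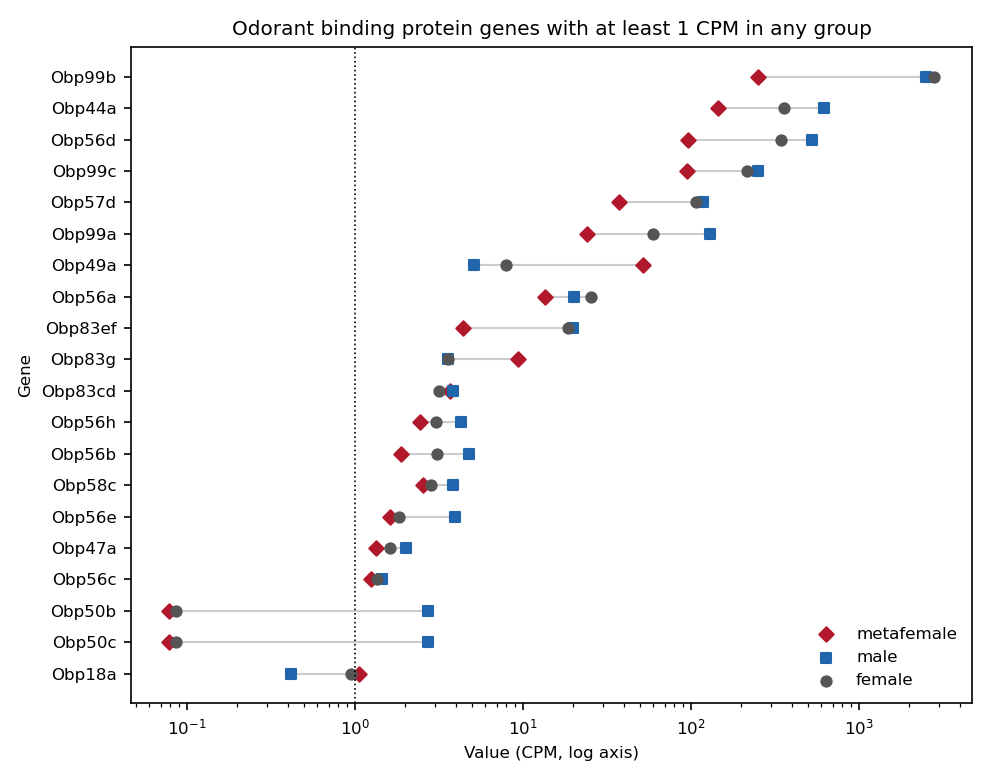
The 20 odorant binding protein genes with at least 1 CPM in any group, 1 row per gene, with the value (CPM, log axis) in metafemale (red diamonds), male (blue squares) and female larvae (grey circles). Each point pools 3 libraries, and the dotted line marks 1 CPM. Metafemale points lie left of both others for Obp99b, Obp44a, Obp56d and Obp99c, and right of both for Obp49a and Obp83g.

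Calls required a 2-fold difference between groups, taken on value + 1 CPM. In metafemales against females, 7 of the 17 genes were lower, 2 were higher and 8 lay within 2-fold. Of all 10942 genes past the same filter, 10.9% were lower and 4.81% higher. The median log2 fold change of the 17 genes was -0.50, beside -0.22 for all genes. Another scaling moves the metafemale values as a whole: median-of-ratios scaling raised them by 0.41 against females on the log2 scale, and scaling on autosomal genes by 0.46. Under either, 4 genes stayed lower and 2 higher, while 4.47% and 4.15% of all genes were lower and 8.97% and 9.50% were higher. Among the 4 was Obp57d, whose value cannot be told apart from that of Cpr57A.

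In males against females, 1 of the 17 genes was higher and 0 were lower, beside 15.3% and 1.96% of all genes. The median of the 17 genes was 0.20, beside -0.04 for all genes. In metafemales against males, 8 of the 17 were lower and 2 higher, beside 28.6% and 8.61% of all genes. The medians were -0.92 for the 17 genes and -0.40 for all genes. The 3 comparisons share their groups in pairs and are not independent of each other.

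**Figure D2:**
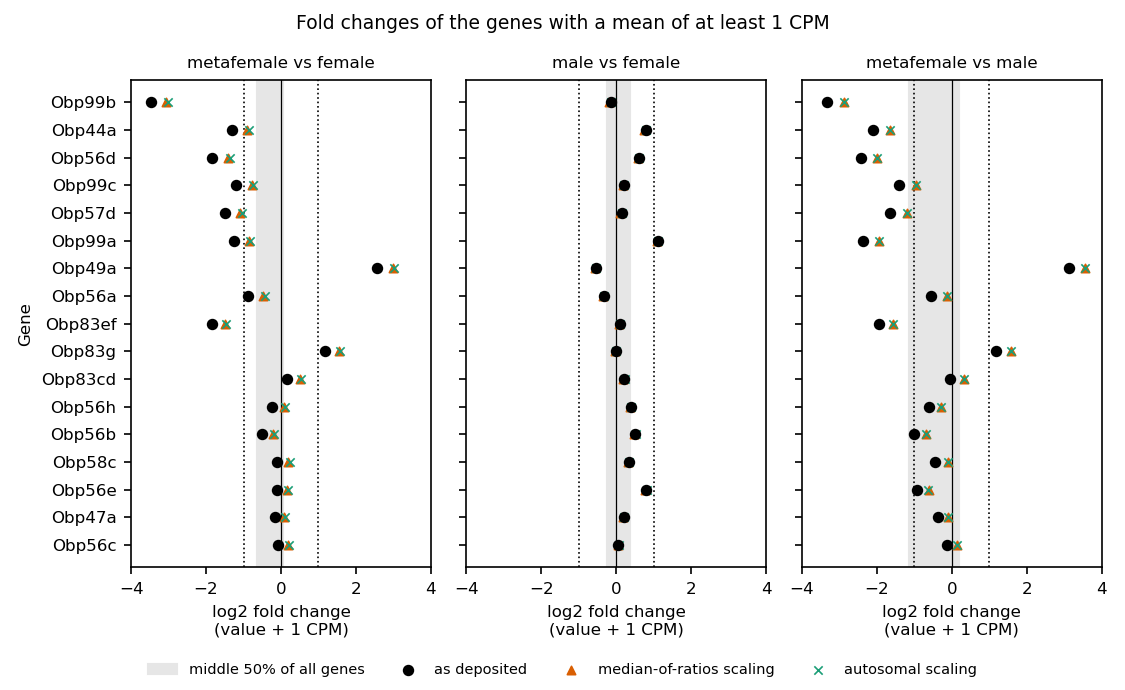
Log2 fold change (value + 1 CPM) of the 17 odorant binding protein genes whose mean reached 1 CPM, in metafemales against females, males against females and metafemales against males. Black circles are values as deposited, orange triangles use median-of-ratios scaling, green crosses use autosomal scaling, the grey band holds the middle 50% of all genes and dotted lines mark 2-fold. Obp99b lies farthest left and Obp49a farthest right in both metafemale panels, under every scaling shown.

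The subfamilies named here were assigned after the values were seen. Of the 6 Minus-C members, 4 passed the filter. As deposited all 4 were lower in metafemales than in females, as were 10.9% of all genes past the filter, and under either rescaling only Obp99b was. Obp99b, which has the synonym tsx in RefSeq, is known from adult flies as a gene of the fat body under control of the sex determination pathway. It had 250.0 CPM in metafemales, 2509.8 CPM in males and 2797 CPM in females. The metafemale value was 11.2-fold lower than the female one (11.1 to 11.3), a log2 fold change of -3.48, and only 33 of 10942 genes had a lower one.

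Obp99b alone accounted for 33.5% of OBP counts in metafemales, 59.2% in males and 70.5% in females. The other 43 genes together had 495 CPM in metafemales, 1730 CPM in males and 1169 CPM in females. Their sum was thus 2.36-fold lower in metafemales than in females, against 5.32-fold for all 44. As deposited, the summed level was lower in metafemales with and without Obp99b. These sums were not rescaled, which would raise the metafemale values by 0.41 or 0.46 against females on the log2 scale. They include Obp57d, whose value is identical to that of Cpr57A, and count the shared value of Obp50b and Obp50c for both genes.

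Larval fat body markers split in metafemales against females. Of 7 marker genes, 3 were higher, 1 was lower and 3 lay within 2-fold, with a median of -0.05 on the log2 scale. The called ones were Lsp1alpha (2.51), Lsp1beta (1.98) and Cg25C (1.63), which were higher, and Fbp1 (-2.45), a receptor for larval serum proteins, which was lower. Within 2-fold were Fbp2 at -0.92, Lsp2 at -0.90 and Lsp1gamma at -0.05. The summed values were 32826 CPM in metafemales, 26445 CPM in males and 27605 CPM in females, and their part in the value of Obp99b was not tested. In bulk larval RNA, fewer cells of a type and less RNA per cell cannot be told apart.

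Obp99a and Obp99c lie near Obp99b on chromosome arm 3R, with other genes between them. Obp99a had 24.3 CPM in metafemales, 129.8 CPM in males and 59.5 CPM in females. It was the 1 member above the filter called higher in males than in females, at 2.18-fold (2.14 to 2.23). It was 2.45-fold lower in metafemales than in females (2.38 to 2.53). Obp99c had 94.7 CPM in metafemales, 251 CPM in males and 218 CPM in females, which was 2.30-fold lower in metafemales than in females (2.26 to 2.33). Both lay within 2-fold of females in metafemales once the columns were rescaled, at -0.86 and -0.78 with median-of-ratios and -0.82 and -0.74 with autosomal scaling.

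Obp99c shares exon sequence on the other strand with Gycalpha99B, which had 2.91 CPM in metafemales, 2.51 CPM in males and 2.82 CPM in females. Its log2 fold change in metafemales against females was 0.03, and how many reads of the overlap were counted for Obp99c was not tested. Obp99d, the remaining gene of this group, was below 1 CPM in every group of larvae. It had 0.295 CPM in metafemales, 0.0109 CPM in males and 0.0384 CPM in females, a ratio of 7.67 between metafemales and females (3.69 to 16.7). On value + 1 CPM its log2 fold change in that comparison was 0.32, within 2-fold.

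Obp44a, a Minus-C gene of arm 2R known from glia of the fly brain, had 145 CPM in metafemales, 621 CPM in males and 361 CPM in females. It was 2.49-fold lower in metafemales than in females (2.46 to 2.52), or -0.90 and -0.85 on the log2 scale after rescaling, which is within 2-fold. In metafemales against males it was 4.28-fold lower (4.23 to 4.33). Glial markers had fold changes on both sides of 0. In metafemales against females 0 of 7 passed 2-fold, with moody at 0.85, loco at -0.77 and nrv2 at -0.59 on the log2 scale. In metafemales against males moody was called higher (1.04), while nrv2 was at -0.91. The sums of the 7 markers were 502 CPM in metafemales, 448 CPM in males and 441 CPM in females, and the part of glia in the value of Obp44a was not tested.

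An exon of Obp44a overlaps Pabp2 on the other strand, and whether counting used strand is not given in the sources used here. Pabp2, a poly(A) binding protein, had 24.4 CPM in metafemales, 61.0 CPM in males and 67.5 CPM in females. Pabp2 was lower in metafemales than in females as well (-1.43), and the part of shared reads in the value of Obp44a was not tested.

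More OBP genes are named for band 56 of arm 2R than for any other band, with 9 members, of which 6 passed the filter. Obp56d had 96.9 CPM in metafemales, 527 CPM in males and 347 CPM in females. It was 3.58-fold lower in metafemales than in females (3.53 to 3.63) and stayed past 2-fold under both rescalings. Obp56a had 13.5 CPM in metafemales, 20.2 CPM in males and 25.6 CPM in females, a log2 fold change of -0.87 in metafemales against females that did not reach 2-fold.

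The other 4 genes of band 56 above the filter lay within 2-fold in metafemales against females. Obp56h had 2.46 CPM in metafemales, 4.29 CPM in males and 3.06 CPM in females. Obp56b had 1.89 CPM in metafemales, 4.79 CPM in males and 3.08 CPM in females, and it was called lower in metafemales against males, just past the line. After rescaling that log2 fold change was -0.69 and -0.70, within 2-fold.

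Obp56e had 1.62 CPM in metafemales, 3.95 CPM in males and 1.84 CPM in females. Its value in males was 2.15 times that in females (1.90 to 2.43), which falls short of the call on value + 1 CPM (0.80) and passes it with 0.1 CPM added instead. Obp56c had 1.25 CPM in metafemales, 1.45 CPM in males and 1.36 CPM in females, and the interval of each ratio included 1. In metafemales against females, direct neighbours at this band therefore ranged from past 2-fold under each scaling, in Obp56d, to an interval that included 1, in Obp56c. Neither has a replicate check, and the intervals cover counting error only.

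**Figure D3:**
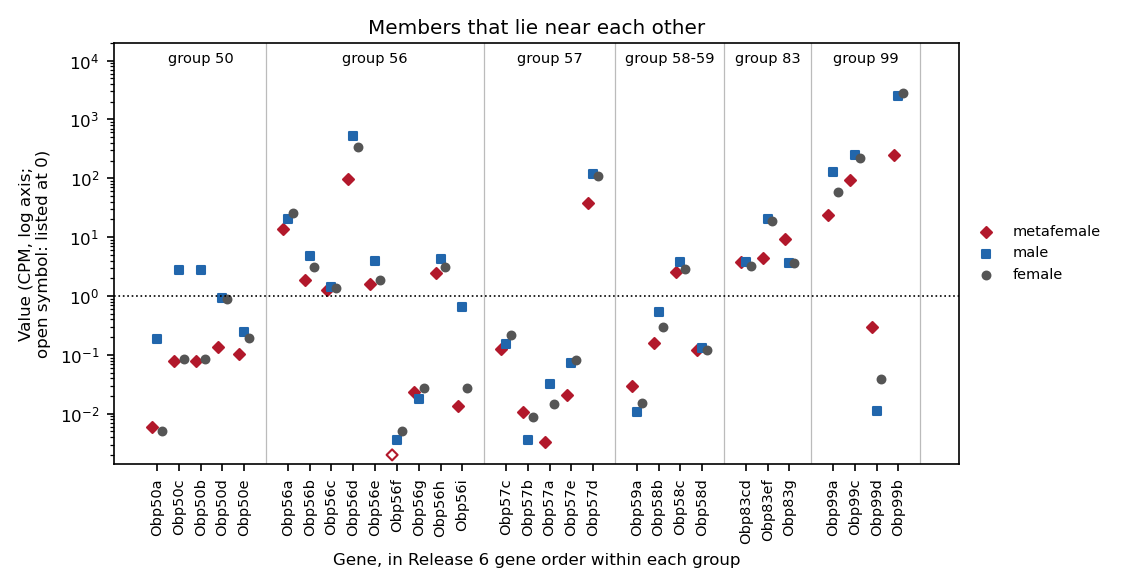
Values (CPM, log axis) of 30 odorant binding protein genes in 6 groups of genes named for the same or adjoining bands, in Release 6 gene order, for metafemale (red diamonds), male (blue squares) and female larvae (grey circles). An open symbol marks a value listed at 0. Male points stand above both others for Obp50a, Obp50b, Obp50c and Obp56i, and Obp83ef and Obp83g lie side by side with metafemale points on opposite sides of the other groups.

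Obp57d had 37.5 CPM in metafemales, 119 CPM in males and 108 CPM in females and was called lower in metafemales than in females (-1.50). The values of Cpr57A, a cuticle protein gene, were identical in all 3 groups. In the Release 6 annotation the genes lie next to each other, on the same strand, with overlapping exons. The value listed for Obp57d therefore cannot be assigned to either gene. Without Obp57d, 6 of 16 OBP genes were lower in metafemales than in females and 2 were higher. In that comparison 4 of 7 cuticle and epidermis markers were lower as deposited, beside 10.9% of all genes. Within 2-fold were Lcp3 at 0.73, Lcp4 at -0.28 and Lcp2 at -0.45 on the log2 scale. The sums of the 7 markers were 4605 CPM in metafemales, 12673 CPM in males and 6783 CPM in females. The part of cuticle in the value listed for Obp57d was not tested.

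The remaining genes of band 57 were all low. Obp57e, which together with Obp57d has been tied to host plant choice in Drosophila sechellia, had 0.0208 CPM in metafemales, 0.0717 CPM in males and 0.0832 CPM in females. Obp57c had 0.128 CPM in metafemales, 0.153 CPM in males and 0.217 CPM in females from a transcript that has no match in the current RefSeq table. Its second transcript lay between 0.0105 and 0.0190 CPM in all groups. Obp57a and Obp57b had at most 0.0324 CPM in every group.

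Among the 17 genes above the filter, Obp49a had the highest log2 fold change in metafemales against females. This Plus-C gene of arm 2R is expressed in accessory cells of taste sensilla, where the protein takes part in the suppression of sweet taste by bitter compounds. It had 52.2 CPM in metafemales, 5.13 CPM in males and 7.93 CPM in females. The metafemale value was 6.58 times that in females (6.26 to 6.91), a log2 fold change of 2.57, and 42 of 10942 genes had a higher one. Against males the ratio was 10.2 (9.49 to 10.9).

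The other Plus-C gene above the filter was Obp58c, with 2.55 CPM in metafemales, 3.83 CPM in males and 2.83 CPM in females. It lay within 2-fold in every comparison. Its neighbours stayed below 1 CPM. Obp58b had 0.158 CPM in metafemales, 0.531 CPM in males and 0.302 CPM in females. Obp58d had 0.122 CPM in metafemales, 0.133 CPM in males and 0.122 CPM in females.

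The 3 members named for band 83 lie in a row on arm 3R and showed 3 different patterns. Obp83ef, which encodes tandem OBP domains, had 4.43 CPM in metafemales, 20.0 CPM in males and 18.6 CPM in females. It was 4.20-fold lower in metafemales than in females (3.94 to 4.48), and both rescalings kept it past 2-fold. Obp83g, next to it, had 9.36 CPM in metafemales, 3.59 CPM in males and 3.61 CPM in females, which was 2.59 times the female value (2.39 to 2.81) and higher under both rescalings too. Obp83cd, on the other side of Obp83ef and also a tandem domain gene, had 3.72 CPM in metafemales, 3.85 CPM in males and 3.19 CPM in females. Exons of Obp83cd and Obp83ef overlap on opposite strands, so a part of their reads cannot be told apart without strand.

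Obp47a on arm 2R had 1.34 CPM in metafemales, 2.02 CPM in males and 1.62 CPM in females, within 2-fold in each comparison. The X chromosome held 5 members, Obp8a, Obp18a, Obp19a, Obp19b and Obp19c, and 0 of them passed the filter. Obp18a was the 1 X-linked member to reach 1 CPM, with 1.07 CPM in metafemales, 0.417 CPM in males and 0.956 CPM in females. Its male value was 2.29-fold lower than the female one (1.75 to 3.07), and its metafemale value was 1.12 times the female one (0.931 to 1.34). On value + 1 CPM both comparisons lay within 2-fold, at -0.46 and 0.08 on the log2 scale. In the remaining 4 X-linked genes no value exceeded 0.0850 CPM.

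Of the 5 genes at band 50 of arm 2R, all of the Plus-C subfamily, Obp50a, Obp50b and Obp50c were higher in males than in both other groups. Obp50b and Obp50c had identical values, 0.0789 CPM in metafemales, 2.71 CPM in males and 0.0861 CPM in females. The genes overlap on the same strand in Release 6, so the reads of the pair cannot be divided between them, and they are 1 measurement. That value was 31.5 times higher in males than in females (20.4 to 54.1) and 34.4-fold lower in metafemales than in males (22.5 to 56.7). Their mean of 0.960 CPM was below the filter. Without a filter the pair was called higher in males than in females, as were 13.6% of all 14161 genes, and lower in metafemales than in males, as were 23.9%.

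Obp50a, the neighbour on one side, had 0.00597 CPM in metafemales, 0.185 CPM in males and 0.00508 CPM in females. Obp50d, the neighbour on the other side, did not share this pattern, with 0.138 CPM in metafemales, 0.924 CPM in males and 0.899 CPM in females. Its metafemale value was 6.50-fold lower than the female one (4.59 to 9.55), but within 2-fold on value + 1 CPM (-0.74 on the log2 scale). Its male value was 1.03 times the female one (0.829 to 1.27). Obp50e had 0.105 CPM in metafemales, 0.240 CPM in males and 0.195 CPM in females, and the ratio of males to females was 1.23 (0.794 to 1.95).

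The deposited values of very low genes were read as means over 3 libraries, each giving a whole count divided by the total of its library. Up to 0.2 CPM, where a single solution existed, they could be resolved into a count for each of the 3 libraries of a group. For Obp50a this gave counts of 2, 0 and 0 in metafemales, 11, 11 and 10 in males and 0, 0 and 1 in females, from the deepest to the shallowest library. Per library this is at most 0.0179 CPM in metafemales, between 0.119 and 0.316 CPM in males and at most 0.0152 CPM in females. Males did not overlap with either other group. No test is given for this, because the gene was described for its male level and an exact permutation test of 3 against 3 libraries cannot go below 0.1.

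Of the members with at least 10 counts and recovered libraries in both groups, Obp50a was the 1 of 10 in which every male library was above every female library, as in 7.59% of 949 such genes. In metafemales against males, 2 of 10 were lower in every library, Obp50a and Obp47b, beside 10.8% of 996 genes. In metafemales against females, 1 of 14 was lower in every library, Obp57e, beside 15.0% of 2143 genes. Obp50a reached 10 counts only through its male libraries, which held 32 of 33 counts in the comparison with females, so its place among these genes supports nothing. These shares cover only genes at or below 0.2 CPM in both groups.

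Libraries of 1 group could differ widely. Obp58d had 12, 23 and 2 counts in metafemales, 12, 13 and 4 in males and 5, 5 and 16 in females. Obp59a, known for a role in sensing humidity, had 9, 1 and 0 counts in metafemales, 1, 2 and 0 in males and 0, 0 and 3 in females. Obp19a had 8, 0 and 0 counts in metafemales, 0 in each male library and 1, 2 and 0 in females. In these genes the groups overlapped, and a single library held most of the counts in at least 1 group.

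**Figure D4:**
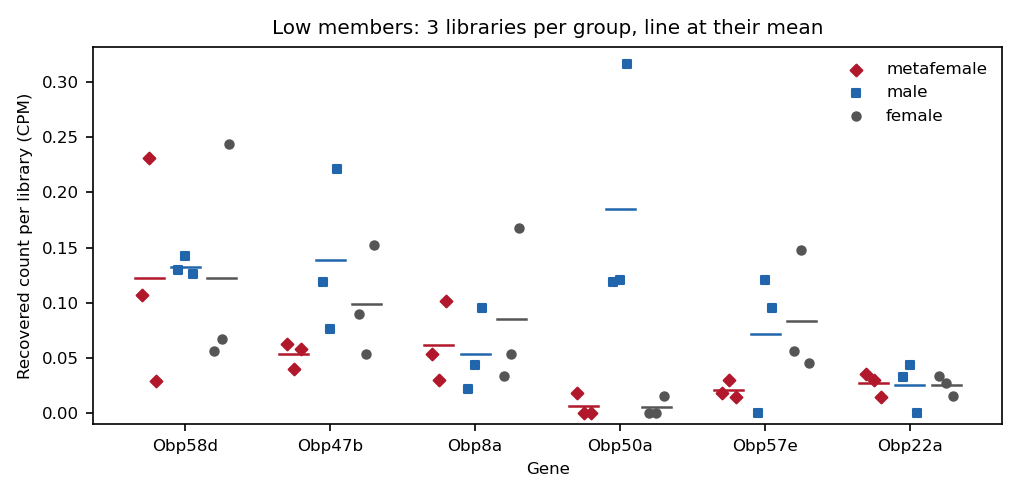
Recovered count per library (CPM) of the 6 odorant binding protein genes that could be resolved in all 3 groups and had at least 20 counts over the 9 libraries, for metafemale (red diamonds), male (blue squares) and female larvae (grey circles). Lines are means of the 3 libraries of a group. The 3 male libraries stand above all others for Obp50a, with 0.119 to 0.316 CPM, while the groups of Obp58d, Obp8a and Obp22a overlap.

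Obp56i was the other gene with low values outside males, with 0.0138 CPM in metafemales, 0.656 CPM in males and 0.0275 CPM in females. The male value was 23.9 times the female one (11.0 to 68.9), from 4 recovered counts in metafemales and 6 in females. On value + 1 CPM the log2 fold change in males against females was 0.69, short of a call. Its second transcript had 0.00298 CPM in metafemales, 0.403 CPM in males and 0.0230 CPM in females. Male values of Obp56i were too high to be divided among libraries.

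Testis markers were high in males. Of 9 marker genes 7 passed the filter, and all 7 were higher in males than in females, beside 15.3% of all genes. All 7 passed the filter only through their male values, so this count supports nothing. Their values outside males were at most 2.30 CPM, in Mst87F of females. The sums over the 9 genes were 1.03 CPM in metafemales, 398 CPM in males and 3.71 CPM in females. The part of the testis in the male values of Obp50a, Obp50b, Obp50c and Obp56i was not tested. Obp93a, a further Plus-C gene, had 0.101 CPM in metafemales, 0.340 CPM in males and 0.146 CPM in females.

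Known as components of adult seminal fluid are 7 members, Obp8a, Obp22a, Obp51a, Obp56e, Obp56f, Obp56g and Obp56i. This group was put together after the values were seen. In larvae 1 of them, Obp56e, reached 1 CPM. Except for Obp56e and Obp56i, their values were at most 0.0850 CPM in all groups. Obp22a had 4, 3 and 1 counts in metafemales, 3, 4 and 0 in males and 3, 2 and 1 in females.

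In all, 24 members stayed below 1 CPM in every group. The 11 with a highest value from 0.133 to 0.924 CPM were Obp46a, Obp47b, Obp50a, Obp50d, Obp50e, Obp56i, Obp57c, Obp58b, Obp58d, Obp93a and Obp99d. The 13 with a highest value of 0.00508 to 0.0850 CPM were Obp8a, Obp19a, Obp19b, Obp19c, Obp22a, Obp51a, Obp56f, Obp56g, Obp57a, Obp57b, Obp57e, Obp59a and Obp85a. Obp46a, a Plus-C gene, lay between 0.160 CPM in metafemales and 0.219 CPM in females, with males in between. Listed at 0 in 1 group each were Obp56f in metafemales, Obp19a in males and Obp19b in females, which allows levels up to the 3-count level of that group. Obp19b, Obp56f and Obp57b were at or below the level of 3 counts in every group, where no difference could be detected.

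By position, 29 members lie on arm 2R, 9 on 3R, 1 on 2L and 5 on the X in Release 6, and 27 have another OBP gene as a direct neighbour. Of the 17 genes above the filter, 0 are X-linked, so the calls above say nothing of X-linked OBP genes. The share of members in the X-linked table was 11.4%, beside 15.8% of all genes.

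OBP genes listed under other names are not members, and 7 of them were in the tables. Pbprp5, now Obp28a, had 7.76 CPM in metafemales, 13.4 CPM in males and 11.1 CPM in females. It was the only one of the 7 to reach 1 CPM. Among the others was lush, whose protein is required in adult antennae for the response to the male pheromone cVA, with 0.192 CPM in metafemales, 0.0822 CPM in males and 0.104 CPM in females.

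Genes of the smell and taste receptor families were mostly below 1 CPM in these larvae. Of the ionotropic receptor genes (Ir), 6 of 59 reached 1 CPM in any group, of the odorant receptor genes (Or) 2 of 59, of the gustatory receptor genes (Gr) 1 of 61, and of the CheA and CheB genes 0 of 18. The summed values of all 59 Or genes were 4.62 CPM in metafemales, 7.70 CPM in males and 6.21 CPM in females. Markers of olfactory neurons were below 1 CPM throughout. Or83b, the coreceptor of the Or family, had 0.363 CPM in metafemales, 0.181 CPM in males and 0.199 CPM in females, and Ir25a, a coreceptor of the Ir family, had 0.479 CPM in metafemales, 0.285 CPM in males and 0.430 CPM in females.

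**Figure D5:**
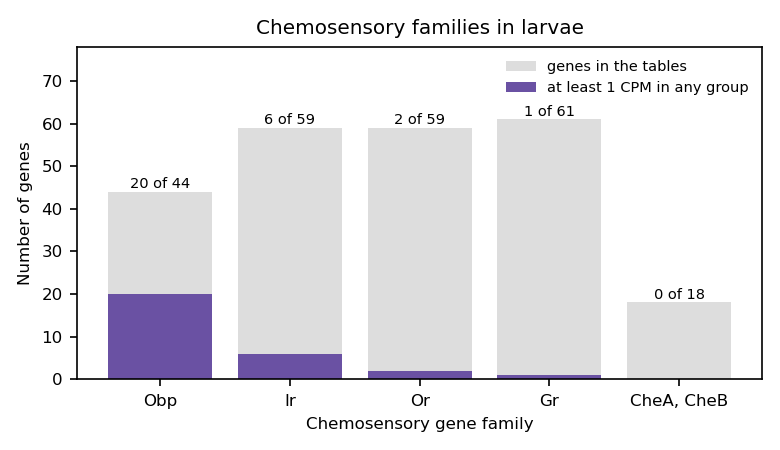
Number of genes per chemosensory family in the tables (grey bars) and number with at least 1 CPM in metafemale, male or female larvae (purple bars), counted from 0. Of the Obp genes 20 of 44 reached that level, against 6 of 59 Ir, 2 of 59 Or, 1 of 61 Gr and 0 of 18 CheA and CheB genes. Values are not corrected for transcript length, so the bars do not compare levels between families.

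Other soluble carriers were measured beside the OBP genes. Of 11 chemosensory protein and Npc2 genes above the filter, 2 were lower in metafemales than in females and 0 were higher, beside 10.9% and 4.81% of all genes, and the median was -0.48. Within 2-fold, the values ran from -0.98 in CG30172 to 0.65 in Npc2h, with PebIII at 0.55. Phk-3, a chemosensory protein gene, had 28.5 CPM in metafemales, 67.1 CPM in males and 93.7 CPM in females. Npc2a, a sterol carrier gene, had 41.3 CPM in metafemales, 89.4 CPM in males and 109 CPM in females. Salivary glue genes, which are expressed in the salivary gland late in larval life, were lower in metafemales than in females in 5 of 6 cases, beside 10.9% of all genes. Their sums were 1799 CPM in metafemales, 15087 CPM in males and 10338 CPM in females. The part of larval stage in the OBP values was not tested.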

How the data were processed

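Total RNA of metafemale, male and female larvae was sequenced from TruSeq libraries, per the labels' protocols. The submitters' processing notes name TopHat, HTSeq and the build dm3. For versions, the annotation and strand use, the answer is not given in the sources used here. Each column deposited by the authors holds fractions that sum to 1 over the transcripts of 2 tables, with 3 columns per table, and these were scaled to CPM. Every positive value below 0.05 CPM was a whole-number combination of 3 step sizes per column within a relative tolerance of 1e-05 (100% in each group), which gave library totals, intervals and, up to 0.2 CPM where a single solution existed, counts per library. These counts are inferred and not stated in a label.

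The tables hold no value per repeat, so the planned count models could not be run. Calls used 2-fold on value + 1 CPM among genes whose mean reached 1 CPM. Alternatives were 0.1 CPM or nothing added, no filter or 10 CPM, sums over transcripts and 2 scalings. Members were matched to RefSeq Release 6, 42 by accession and 2 by symbol, for names, arms, order and overlaps; no coordinates are given because that build is not dm3, and no sequences were used here. Every gene with 1 CPM in any group is named with its values. The members, lists and rules were chosen with earlier results of these data known. The scripts were tested on simulated data (Python 3.11.15, scipy 1.17.1).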

Additional observations from a re-analysis of the deposited data

How the results depend on the processing

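Members past 2-fold in metafemales against females were 9 of 17 as reported (2 higher, 7 lower). Under 7 other settings they were between 6 and 9, out of 44 members with no filter, 9 at 10 CPM and 17 otherwise. Without Obp57d, a setting chosen after seeing the data, they were 8 of 16. Over these settings, 3.84% to 9.50% of all genes were higher and 4.15% to 20.0% were lower. In metafemales against males they were 10 and between 8 and 12, and 9 without Obp57d. Of all genes, 6.83% to 15.0% were higher and 20.4% to 32.2% were lower in that comparison. In males against females the count of 1 moved to 2 with 0.1 CPM added, to 2 with nothing added (Obp56e joins Obp99a in both) and to 3 with no filter (Obp50b and Obp50c join). Over all genes, the split of 526 higher and 1188 lower in metafemales against females became 982 and 489 with median-of-ratios and 1040 and 454 with autosomal scaling. In metafemales against males it was 942 and 3126, 1637 and 2279, and 1645 and 2284. No called member changed sign under the alternatives run for single genes. The number of members with 1 CPM in any group was 20, and 23 at 0.5 CPM, 18 at 2 CPM, 21 with sums over transcripts and 19 with Obp50b and Obp50c counted once. No paired analysis was possible because the columns carry no value per repeat, and leaving out single repeats, edgeR and DESeq2 were not run for the same reason.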
